A study of Homo sapiens with 12 samples.

Results

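Lysozyme and the proteins stored in myeloid granules were followed in U937 cells through 10 genes, LYZ, MPO, AZU1, PRTN3, ELANE, CAMP, LTF, LCN2, RNASE2 and RNASE3, of the 44786 gene symbols listed. The members were taken as the rows of the transcript table that carry these symbols, 39 rows in all. U937 is an established line of myelomonocytic leukemia cells of human origin. The RNA libraries came from untreated cells, from cells given decitabine (DAC, 200 nM), from cells given all-trans retinoic acid (ATRA, 1 µM) and from cells given DAC + ATRA at the same concentrations, with 3 libraries per group. DAC was given in 3 daily doses, and by the methods ATRA was added with the last of them, whereas the labels give 3 days of treatment for both agents. The study lists its triplicates as technical, so that p-values measure the spread between these libraries only, and all results come from a single cell line. All groups were grown in RPMI medium with fetal calf serum, and the labels add human GM-CSF to it. The labels give 96 h for the untreated cells and 72 h for the treated cells, whereas the series text gives a single harvest after 72 h.

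Granule proteins are made in waves as a myeloid precursor matures. MPO, AZU1, PRTN3 and ELANE are products of the promyelocyte and fill the azurophil (primary) granules. CAMP, LTF and LCN2 are products of the later myelocyte and fill the specific (secondary) granules, and LYZ is made by monocytes and macrophages as well as by granulocytes. RNASE2 and RNASE3 are ribonucleases of the eosinophil granule that are also transcribed in other myeloid cells. DAC, an analogue of cytosine, depletes DNA methyltransferases by binding them to DNA, and ATRA is the ligand of the retinoic acid receptors and drives granulocytic maturation in some leukemias.

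Of the 10 genes, 5 were counted at a level that could be tested, and these moved in opposite directions. LYZ and CAMP were raised by DAC and by DAC + ATRA, and did not pass the test with ATRA alone. MPO, RNASE2 and RNASE3 were lowered by DAC, by ATRA and by DAC + ATRA. The other 5 genes, AZU1, PRTN3, ELANE, LTF and LCN2, were listed with 0 to 21 reads over the 12 libraries together.

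Values are normalized read counts, the reads of a transcript divided by a size factor of its library. A transcript was tested if it was protein-coding and reached 10 in at least 3 libraries, which 9016 transcripts did. Groups were compared with limma after transforming the values to log2(x + 1), with Benjamini-Hochberg adjustment over the 9016 transcripts and a threshold of 0.01 for the adjusted p. Of the 39 member rows, 14 had a read and 5 were tested, a single coding row for each of LYZ, CAMP, MPO, RNASE2 and RNASE3. CAMP passed the filter in the untreated libraries too, so that no tested member entered only through the group in which it was high.

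With DAC, 2 members were raised, beside 30.6% of all transcripts tested, and 3 were lowered, beside 8.7%. With ATRA, no member was raised, beside 6.47% of all transcripts, and 3 were lowered, beside 2.67%. By edgeR and DESeq2 on the recovered reads, and at an unadjusted limma p under 0.05, 0 were raised with ATRA as well. With DAC + ATRA, 2 were raised (32.6% of all transcripts) and 3 lowered (14.2%). The median log2 fold change of all transcripts tested was 0.22 for DAC, 0.00 for ATRA and 0.20 for the combination, and it fell to 0.02 and 0.06 for DAC and DAC + ATRA when the recovered reads were scaled with edgeR's TMM. Relative to the median of all transcripts, the log2 fold changes with DAC + ATRA were 2.53 for LYZ, 3.87 for CAMP, -2.001 for MPO, -2.25 for RNASE2 and -2.08 for RNASE3. The share of rises among all calls was 77.9% with DAC and 69.7% with DAC + ATRA, against 58.8% and 58.9% with TMM. For ATRA it was 70.8%, against 54.6% when scaled by library size. The directions of the 5 members were the same under every scaling tried, apart from CAMP with ATRA.

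**Figure D1:**
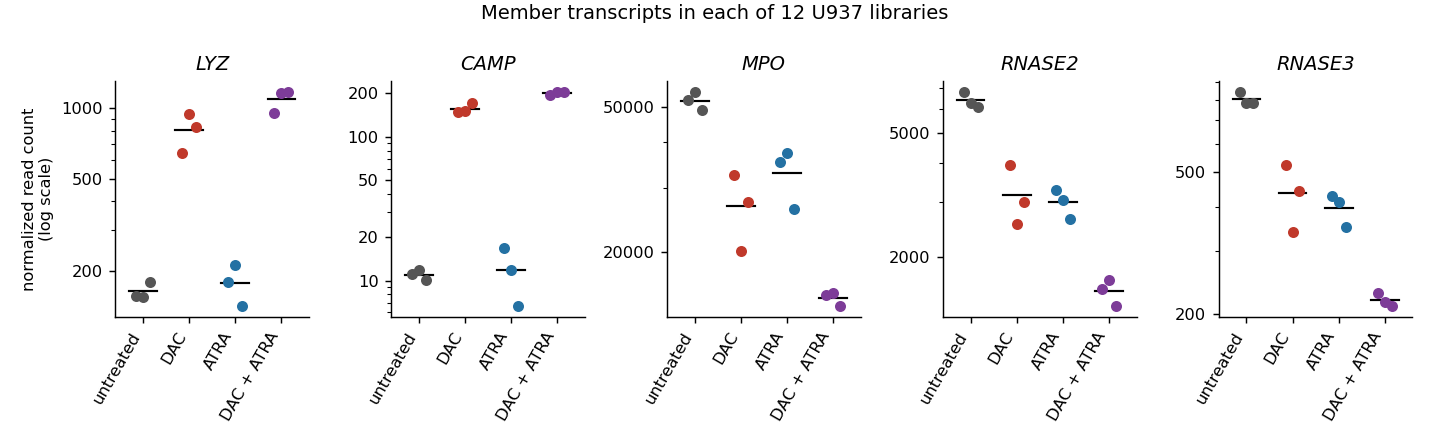
Normalized read counts (log scale) of the tested transcript of LYZ, CAMP, MPO, RNASE2 and RNASE3 in each of the 12 libraries, by treatment, with a line at the group mean of 3 libraries. LYZ and CAMP were higher in all libraries that received DAC, and MPO, RNASE2 and RNASE3 were highest in the untreated libraries and lowest with DAC + ATRA.

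LYZ encodes lysozyme, which cleaves the peptidoglycan of bacterial cell walls. The gene lies at chr12:69348381-69354234 on the plus strand of hg38, and its tested transcript (ENST00000261267) has 4 exons. In untreated cells, the LYZ normalized read counts were 157, 155 and 181. With DAC, they were 641, 941 and 835. With ATRA alone, they were 181, 214 and 142, and this group overlapped the untreated libraries. With DAC + ATRA, they were 954, 1160 and 1178, and each of these libraries was above all libraries of the other groups.

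For LYZ, the group means rose from 164 ± 14.5 (SD, n = 3) in untreated cells to 806 ± 152 with DAC and to 1097 ± 124 with DAC + ATRA. The log2 fold change of LYZ was 2.27 ± 0.15 (SE, limma adjusted p = 1.10e-10) with DAC. With DAC + ATRA, it was 2.73 ± 0.15 (adjusted p = 4.53e-12). With ATRA alone, the value was 0.11 with a 95% confidence interval of -0.21 to 0.43 (adjusted p = 0.725), an interval that leaves room for a change of either sign. LYZ differed between DAC + ATRA and DAC by 0.46 ± 0.15, which did not pass the threshold in limma (adjusted p = 0.0444) and passed it with edgeR on the recovered reads (0.50, adjusted p = 0.00477). In bulk RNA, a larger share of cells that transcribe a gene and more RNA per cell cannot be told apart, and this holds for all values that follow.

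A long noncoding RNA on the opposite strand (ENSG00000257764) overlaps the end of LYZ. Its row held 1 read over all libraries, beside 6621 for LYZ. The libraries were strand-specific, and whether the counting used the strand is not given in the sources used here. The other LYZ rows, ENST00000548839 and ENST00000549690, held no read.

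CAMP encodes cathelicidin, the precursor of the antimicrobial peptide LL-37. It lies at chr3:48223347-48225491 on the plus strand and has a single listed transcript (ENST00000296435) of 4 exons. The CAMP normalized read counts were 11.03, 11.8 and 10.2 in untreated cells. With DAC, they were 149, 151 and 170. With ATRA alone, they were 16.9, 11.8 and 6.66, on both sides of the untreated libraries. With DAC + ATRA, they were 193, 205 and 204, again above all libraries of the other groups.

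CAMP had the largest fold change of the members, since its mean went from 11.01 ± 0.84 (SD, n = 3) to 157 ± 11.7 with DAC and 201 ± 6.45 with DAC + ATRA. Its log2 fold changes were 3.72 ± 0.24 (SE, limma adjusted p = 4.82e-11) and 4.07 ± 0.24 (adjusted p = 8.35e-12). The untreated values rest on 36 reads in the 3 libraries together. With ATRA alone, the log2 fold change of CAMP was 0.01, with an interval of -0.49 to 0.51 (adjusted p = 1). DAC + ATRA exceeded DAC by 0.36, with an interval of -0.14 to 0.86, which did not pass the threshold (adjusted p = 0.356), although the libraries of both groups did not overlap.

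The sequence before the CAMP start is shown because DAC acts on methylated CpG sites. Capitals mark CpG letters, methylated or not, in the 102 bases upstream of the annotated transcript (RefSeq, GRCh38.p14, chr3:48223245-48223346, plus strand).
CAMP: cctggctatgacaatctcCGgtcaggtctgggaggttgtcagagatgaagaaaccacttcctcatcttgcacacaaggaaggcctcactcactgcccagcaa
This stretch holds a single CpG. In the 250 bases before the RefSeq start of CAMP, which lies within the annotated transcript, there was also only 1 CpG, against a median of 11 over the 35116 RefSeq promoters. A share of 14.7% of all promoters had at most 1. Methylation of these bases was not analysed here.

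MPO encodes myeloperoxidase, the enzyme that makes hypochlorous acid from hydrogen peroxide and chloride. It lies at chr17:58269855-58280935 on the minus strand. The tested transcript (ENST00000225275) has 12 exons and collected 397919 reads over the 12 libraries, by far the most of the members. In untreated cells, the MPO normalized read counts were 52195, 55158 and 49005. With DAC, they were 32489, 20141 and 27361, and with ATRA they were 35327, 37516 and 26256. Both single-agent groups lay below the untreated libraries and overlapped each other. With DAC + ATRA, the counts were 15267, 15452 and 14199, below every other library.

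For MPO, the mean fell from 52120 ± 3077 (SD, n = 3) in untreated cells to 51.2% of it with DAC, to 63.4% with ATRA and to 28.7% with DAC + ATRA. The MPO log2 fold changes were -0.99 ± 0.14 (SE, limma adjusted p = 1.65e-05) with DAC and -1.80 ± 0.14 (adjusted p = 6.73e-09) with DAC + ATRA. With ATRA alone, it was -0.67 ± 0.14 (adjusted p = 0.00328). This ATRA call was lost without untreated library 1 (adjusted p = 0.0143) or 2 (0.0217) and without ATRA library 7 (0.01004) or 9 (0.0332), with values from -0.73 to -0.52. It was also lost without a filter on low values (adjusted p = 0.10002). MPO with DAC + ATRA was lower than with each single agent, with log2 differences of -0.81 ± 0.14 against DAC (adjusted p = 0.000561, and 0.0360 without a filter on low values, where the call was lost) and of -1.13 ± 0.14 against ATRA (adjusted p = 4.12e-06).

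Other rows of MPO carried fewer reads. The row of a retained-intron transcript (ENST00000581022, chr17:58278837-58279399) had 2595 reads. Its normalized read counts were 400, 411 and 425 in untreated cells. With DAC, they were 136, 82.8 and 123. With ATRA, they were 221, 228 and 221, and with DAC + ATRA they were 68.7, 68.4 and 59.3. The 4 groups did not overlap.

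In the fit over all 19373 coding and other transcripts, 11.3% were lowered with DAC, 1.87% with ATRA and 16.1% in the combination. The MPO intron row was among them in each case, with log2 fold changes of -1.88 ± 0.16 (SE), -0.88 ± 0.16 and -2.64 ± 0.16. A further noncoding row (ENST00000578493) was lowered with DAC (-1.15 ± 0.28) and with DAC + ATRA (-1.42 ± 0.28). With ATRA it had a value of -0.28 ± 0.28 (limma adjusted p = 0.625).

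Relative to 1000 reads of the MPO coding row, the intron row had 7.44 to 8.67 reads in untreated cells and 6.09 to 8.43 with ATRA. With DAC, it had 4.11 to 4.48, and with DAC + ATRA 4.18 to 4.50. All 6 libraries that received DAC were thus below all 6 that did not. This ratio was chosen after its values were seen and was not tested. Of the 3216 bases of the coding transcript, 453 belong to no other listed transcript, and of the 481 bases of the intron transcript 171 do. How reads in shared sequence were counted is not given in the sources used here.

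**Figure D2:**
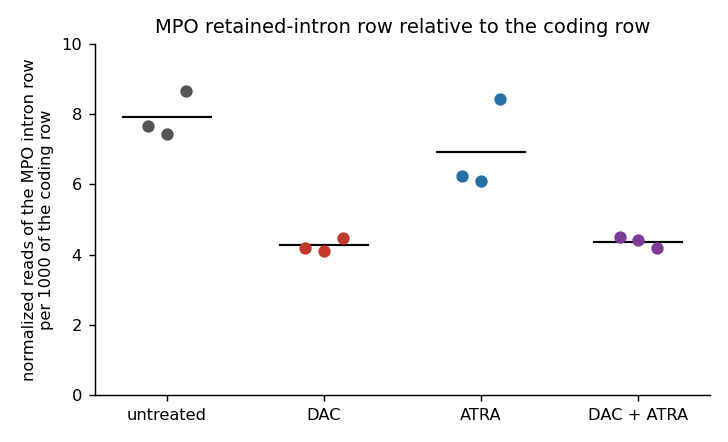
Normalized reads of the MPO retained-intron row per 1000 of the MPO coding row in each library, by treatment, on a linear axis from 0, with a line at the group mean. The 6 libraries with DAC lie between 4.11 and 4.50 and the 6 without it between 6.09 and 8.67.

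RNASE2 encodes the eosinophil-derived neurotoxin and RNASE3 the eosinophil cationic protein, neighbouring paralogs of the RNase A family on chromosome 14. RNASE2 lies at chr14:20955487-20956436 and RNASE3 at chr14:20891385-20892348, both on the plus strand with 2 exons and 63.1 kb apart. Their transcripts were identical at 642 of 714 aligned bases (89.9%). Of the 671 windows of 50 bases in the RNASE2 transcript, 21 also occur in RNASE3, and reads in these windows could have come from either gene.

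The paralogs also share the sequence before their starts, which is shown because both genes moved alike. The aligned part of the 250 bases upstream of each RefSeq start is printed (GRCh38.p14, plus strand), chr14:20955237-20955469 for RNASE2 and chr14:20891186-20891384 for RNASE3. Capitals mark bases that differ or have no partner in the other gene.
RNASE2: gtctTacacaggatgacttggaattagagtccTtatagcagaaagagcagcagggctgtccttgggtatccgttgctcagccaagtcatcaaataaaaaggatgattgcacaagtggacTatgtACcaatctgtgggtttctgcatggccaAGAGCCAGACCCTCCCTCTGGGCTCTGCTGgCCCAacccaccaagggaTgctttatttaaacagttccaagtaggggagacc
RNASE3: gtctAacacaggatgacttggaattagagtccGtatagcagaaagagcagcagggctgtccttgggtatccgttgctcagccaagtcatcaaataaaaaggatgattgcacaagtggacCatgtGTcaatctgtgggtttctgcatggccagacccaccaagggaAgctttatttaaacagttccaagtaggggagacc
Of 199 aligned bases, 193 were identical (97.0%), and RNASE2 held a further 34 bases without a partner. The full 250-base windows held 1 CpG in RNASE2 and 5 in RNASE3, against the median of 11.

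Motif letters were searched on both strands of the 250 bases before the RefSeq start. TTGCNNAA, the letters of C/EBP sites, occurred once each in RNASE2 and RNASE3, and 9.05% of all promoters hold them. The same letters occurred once each in AZU1, PRTN3 and LCN2 and at 1 of 3 starts of LTF, and not in CAMP. GAGGAA, the core of PU.1 sites, did not occur in RNASE2 or RNASE3 and occurred once in CAMP, beside 23.6% of all promoters. It also occurred once in PRTN3 and at each start of LTF. AGGTCA, a half-site of retinoic acid receptors, occurred in none of the members with an entry, beside 12.1% of all promoters. These motifs do not overlap in letters, and a match describes the sequence only. LYZ, MPO and ELANE had no entry in the promoter table.

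The RNASE2 normalized read counts in untreated cells were 6817, 6280 and 6079. With DAC, they were 3966, 2541 and 2994, and with ATRA 3275, 3058 and 2649. The single-agent groups overlapped each other and lay below the untreated libraries. With DAC + ATRA, the counts were 1571, 1676 and 1387, the lowest of all. In percent of the untreated mean of 6392 ± 382 (SD, n = 3), RNASE2 stood at 49.5% with DAC, 46.8% with ATRA and 24.2% in the combination.

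RNASE3 was counted at a lower level and showed the same order of groups. Its normalized read counts were 843, 782 and 786 in untreated cells, 524, 340 and 443 with DAC, 430, 411 and 350 with ATRA and 228, 216 and 210 with DAC + ATRA. In percent of the untreated mean of 804 ± 34.04 (SD, n = 3), these were 54.2%, 49.4% and 27.1%. DAC and ATRA overlapped, and no other groups of RNASE3 did.

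The log2 fold changes of RNASE2 were -1.04 ± 0.13 (SE, limma adjusted p = 9.98e-07) with DAC, -1.10 ± 0.13 (2.27e-06) with ATRA and -2.05 ± 0.13 (2.72e-11) in the combination. Those of RNASE3 were -0.90 ± 0.13 (limma adjusted p = 1.03e-05), -1.02 ± 0.13 (1.05e-05) and -1.88 ± 0.13 (1.94e-10). Of the 9016 log2 fold changes with DAC + ATRA, that of RNASE2 was the 51st lowest, that of RNASE3 the 85th lowest and that of MPO the 104th lowest. Those of CAMP and LYZ were the 495th and 913th highest.

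RNASE2 had 7.73 to 8.09 times the normalized reads of RNASE3 in untreated cells. In the treated libraries the ratio ran from 6.60 to 7.77, and its group means were 7.26 with DAC, 7.54 with ATRA and 7.09 in the combination.

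The combination was also compared with each single agent. Against DAC alone, DAC + ATRA raised no member, beside 6.08% of all transcripts, and lowered 3, beside 5.26%, or 2 without a filter on low values, where MPO lost its call. The lowered members were MPO, RNASE2 (-1.02 ± 0.13, SE) and RNASE3 (-0.98 ± 0.13). LYZ was the 1 member raised at an unadjusted limma p under 0.05 and by edgeR, and DESeq2 raised 0. Against ATRA alone, DAC + ATRA raised LYZ (2.62 ± 0.15) and CAMP (4.06 ± 0.24), beside 25.9% of all transcripts, and lowered MPO, RNASE2 (-0.95 ± 0.13) and RNASE3 (-0.86 ± 0.13), beside 8.88%. All comparisons named here share libraries, and their values are given side by side only.

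The DAC × ATRA interaction is 0 on the log2 scale when the fold changes of the single agents multiply in the combination. It was called by limma for no member, beside 2.46% of all transcripts tested, and 0 members passed an unadjusted p under 0.05 or were called by edgeR or DESeq2. The fitted interaction was 0.35 for LYZ, with a 95% confidence interval of -0.10 to 0.80 (limma adjusted p = 0.442), and 0.35 for CAMP, with an interval of -0.36 to 1.05 (adjusted p = 0.662). The CAMP value was 0.019 without ATRA library 9 and 0.63 without ATRA library 7. For MPO it was -0.13 (-0.56 to 0.30), for RNASE2 0.08 (-0.30 to 0.47) and for RNASE3 0.04 (-0.35 to 0.44). With the multiplied single-agent folds of the means, LYZ would stand at 534% of untreated and CAMP at 1527%, and the means measured with DAC + ATRA were 668% and 1825%. RNASE2 would stand at 23.2%, MPO at 32.4% and RNASE3 at 26.8%, and the measured means were 24.2%, 28.7% and 27.1%. When each library was left out in turn, the measured mean stayed above the product for LYZ and below it for MPO. For CAMP the order turned without ATRA library 9 (product 1859%, measured 1825%), and for RNASE2 and RNASE3 it turned without DAC library 5 (25.5% against 24.2% and 29.8% against 27.1%) or ATRA library 9 (24.5% and 28.4% against the same means). It also turned for RNASE2 without DAC + ATRA library 11 (23.2% against 23.1%) and for RNASE3 without untreated library 1 (28.2% against 27.8%) or DAC + ATRA library 10 (26.8% against 26.5%). The intervals leave room for interactions of moderate size in each gene.

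On the linear scale, the sum of the single-agent changes gave another reference. LYZ rose by 933 normalized reads with DAC + ATRA and by 656 when the changes with DAC and ATRA were added, an excess of 277 ± 116 (SE). The excess was 43.3 ± 8.28 for CAMP. For MPO, RNASE2 and RNASE3 the added single-agent changes were larger than the change with DAC + ATRA, by 7396 ± 5293, 1776 ± 516 and 188 ± 61.9 normalized reads. The MPO value was 4134 ± 4665 without DAC library 5 and 4007 ± 4164 without ATRA library 9. For RNASE2, the added changes of -6623 normalized reads would have taken the level below 0.

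**Figure D3:**
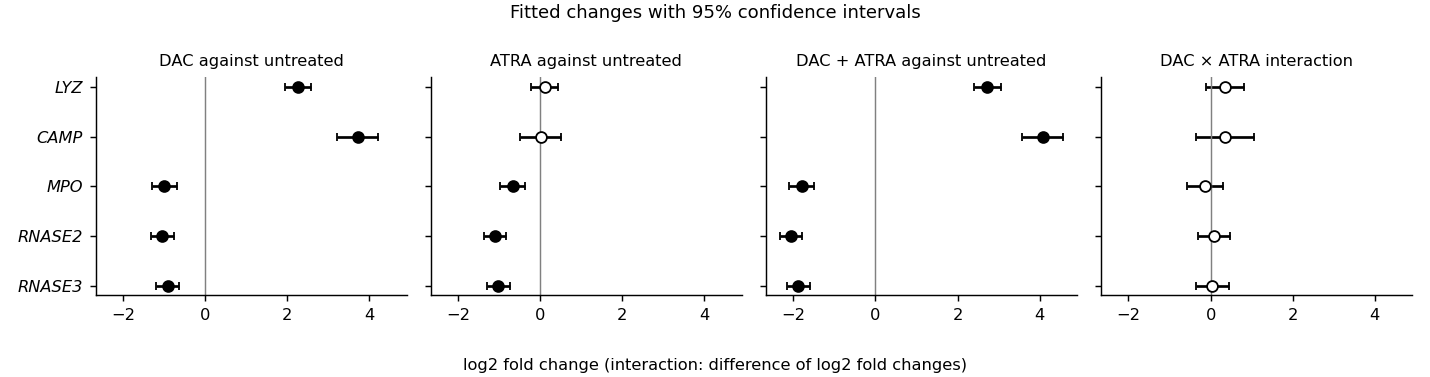
Log2 fold changes of the 5 tested members against untreated cells, and their DAC × ATRA interaction, with 95% confidence intervals from limma. Filled points passed an adjusted p of 0.01, open points did not. LYZ and CAMP are to the right of 0 wherever DAC was given, MPO, RNASE2 and RNASE3 are to the left with each treatment, and the 5 intervals of the interaction include 0.

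Levels of different genes can be set side by side only per length. Per kb of sequence that belongs to no other listed transcript, untreated cells had 115054 ± 6794 (SD, n = 3) normalized reads of MPO and 8878 ± 530 of RNASE2. RNASE3 followed with 1095 ± 46.4, LYZ with 200.1 ± 17.7 and CAMP with 14.8 ± 1.12. With DAC, LYZ at 981 ± 185 stood above RNASE3 at 594 ± 126, and their libraries did not overlap. With ATRA, the order was that of untreated cells.

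With DAC + ATRA, MPO was at 33053 ± 1493 per kb, RNASE2 at 2145 ± 203 and LYZ at 1336 ± 152. RNASE3 at 297 ± 12.3 and CAMP at 269.6 ± 8.66 were the closest neighbours of any group, at a ratio of 1.10, and their libraries did not overlap. The distance between MPO and LYZ per kb thus narrowed, while MPO kept the highest level in every group. These levels rest on 453 exclusive bases for MPO, 821 for LYZ, 745 for CAMP, 720 for RNASE2 and 734 for RNASE3, which assumes that reads in shared sequence were not counted, and coverage along a transcript need not be even.

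**Figure D4:**
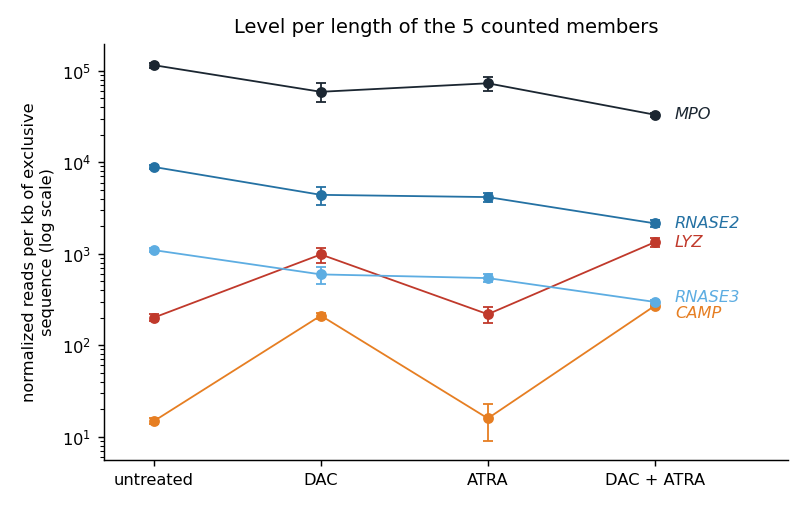
Normalized reads per kb of exclusive sequence (log scale) of the 5 counted members in each treatment group, as the mean of 3 libraries with SD bars, joined by a line for each gene. LYZ lies below RNASE3 in untreated cells and with ATRA (200.1 against 1095 in untreated cells), and above it with DAC and with DAC + ATRA.

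Libraries of a group did not move alike in all members. Among the DAC libraries, library 4 was the least changed and library 5 the most changed in LYZ, MPO, RNASE2 and RNASE3, with deviations from the group mean (log2) of -0.31 and 0.24 for LYZ and of 0.31 and -0.38 for MPO. CAMP deviated by -0.07 and -0.05 in these libraries. The median deviation of all transcripts tested was 0.00 and 0.02. Among the ATRA libraries, library 9 was the lowest in all 5 members, with deviations of -0.31 for LYZ, -0.66 for CAMP, -0.31 for MPO, -0.17 for RNASE2 and -0.18 for RNASE3, and the median deviation of all transcripts in it was -0.12. The part of these deviations in the results was not tested.

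Across the 12 libraries, the transcripts most like LYZ by Pearson r of log2(normalized read count + 1) were those of OTUD1 (0.996), ULBP2 (0.996) and ENDOD1 (0.993). Those most like MPO were ALDH1B1 (0.987), PTGER2 (0.987) and SMIM10 (0.983). Among the members, RNASE2 and RNASE3 had the highest r (0.996), LYZ and CAMP had 0.986, and MPO had 0.967 with RNASE2 and 0.965 with RNASE3. LYZ and MPO had an r of -0.84. These values describe 12 libraries that fall into 4 treatment groups, and they carry the group differences already given.

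AZU1, PRTN3 and ELANE encode azurocidin, proteinase 3 and neutrophil elastase, serine protease family proteins of the azurophil granule, and lie side by side on chromosome 19. AZU1 (ENST00000233997 at chr19:827837-832018 and a longer transcript) was listed with 4 reads over the 12 libraries, and PRTN3 (chr19:840999-848175) with 0. ELANE (ENST00000263621 at chr19:852303-856243 and a longer transcript) was listed with 21 reads, of which 11 were in untreated libraries, 3 with DAC, 5 with ATRA and 2 in the combination. A count of 3 reads corresponds to 2.50 to 3.71 normalized reads depending on the library, and no library had more than 5 reads of ELANE.

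These low values cannot be read as absent transcripts. Each of AZU1, PRTN3 and ELANE has 4 rows, of which 2 carry identifiers that GENCODE 44 does not hold, and 7 of the ELANE reads were in such a row. The ELANE transcript named above has no base outside the other listed transcripts, and the PRTN3 transcripts have 71 and 120 such bases. Neighbouring genes on both sides were listed low as well. PLPPR3 and CFD had 0 reads, and MED16, a subunit of the Mediator complex that every cell uses, had 14. PTBP1 before them had 4212 reads and ARID3A behind them 37011.

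Among coding symbols with at least 100 exclusive bases, 3600 had a row that GENCODE 44 does not hold, and 59.2% of these had at least 10 reads. Of the 14836 symbols without such a row, 73.6% did. AZU1, PRTN3 and ELANE are among the former, and what the deposited counting did with their reads was not tested.

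**Figure D5:**
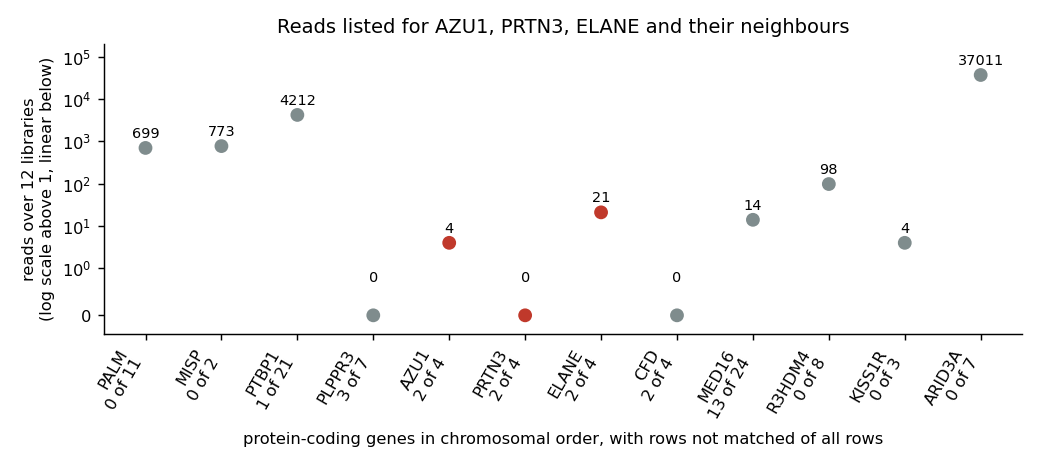
Reads over all 12 libraries for the protein-coding genes around AZU1, PRTN3 and ELANE (red) in chromosomal order, on an axis that is logarithmic above 1 and linear below. Under each name stands how many of its rows were not matched to GENCODE 44. The genes from PLPPR3 to MED16 had 0 to 21 reads, and each of them had at least 2 rows not matched.

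LTF encodes lactoferrin, an iron-binding protein, and LCN2 encodes lipocalin 2, which binds bacterial siderophores. LTF (chr3:46435645-46464905, minus strand) had 7 reads over its 9 rows, of which 1 was in untreated libraries, 4 with DAC, 0 with ATRA and 2 in the combination. LCN2 (chr9:128149071-128153453, plus strand) had 1 read over 7 rows, in a DAC + ATRA library. All rows of LTF and LCN2 were matched, but the LCN2 transcript ENST00000277480 has no base outside the other listed transcripts. The LTF transcript ENST00000231751 has 374 such bases of 2721. These low values cannot be read as absent transcripts either. Among the members that belong to the specific granule, CAMP was thus the only one with enough reads for a test.

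The remaining genes of these pathways are described by counts, to be read against the shares and medians of all transcripts tested, which are repeated beside them. A gene with no untreated library at 10 passed the filter only through treated libraries and could hardly be called lowered, and a gene with no DAC + ATRA library at 10 could hardly be called raised there. Such genes are named, apart from some around LTF, CAMP and LCN2, where no number called is given. Of 19 further azurophil granule genes, 5 were tested. BPI, which binds bacterial lipopolysaccharide, passed the filter only through libraries with DAC, so that its call as raised is no result. Of the other 4, with DAC 2 rose (30.6% of all transcripts), with ATRA none passed, and with DAC + ATRA 2 rose (32.6%) and 1 fell (14.2%). Their medians were 0.16, -0.05 and -0.09, beside 0.22, 0.00 and 0.20 for all transcripts. BPI had at most 0.92 normalized reads in the untreated libraries and 88.6 to 106 with DAC + ATRA, at least 34.4-fold higher against 3 reads per library. FUCA1, a lysosomal fucosidase, rose by 2.00 ± 0.10 (SE, limma adjusted p = 9.32e-13) on the log2 scale. STOM, stomatin, was the gene that fell, with -0.61 ± 0.14 (adjusted p = 0.000828).

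Of 24 specific and gelatinase granule genes, 9 were tested. With DAC, 6 rose (30.6% of all transcripts), with ATRA 3 rose (6.47%) and 1 fell (2.67%), and with DAC + ATRA 5 rose (32.6%) and 2 fell (14.2%). The medians were 0.86, 0.37 and 0.87, beside 0.22, 0.00 and 0.20 for all transcripts. MMP9, gelatinase B, went from 10.2 to 19.3 normalized reads in untreated cells to 749 to 898 with DAC + ATRA, a log2 fold change of 5.78 ± 0.24 (SE, limma adjusted p = 5.75e-13). CYBB, the large subunit of the phagocyte oxidase, rose by 4.34 ± 0.11 (adjusted p = 1.24e-17). FCN1, ficolin 1 and 1 of the 2 counted as fallen, passed the filter through untreated and ATRA libraries only, so that its call is no result. It had 8.19 to 14.7 normalized reads in untreated cells and 1.24 to 5.26 with DAC + ATRA. CEACAM6 fell with DAC + ATRA (-0.86 ± 0.19, adjusted p = 0.000540), and with DAC alone it rose by 0.71 ± 0.19 (adjusted p = 0.00337).

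Of 10 eosinophil and basophil granule genes, EPX, CLC and CPA3 passed the filter, and all 3 did so only through treated libraries, since no untreated library reached 10. Their call as raised is therefore no result, and their values are given as a description. EPX, eosinophil peroxidase and a neighbour of MPO, had 5.46 to 7.35 normalized reads in untreated cells, 47.7 to 58.8 with DAC, 44.9 to 68.6 with ATRA and 46.1 to 63.2 with DAC + ATRA. CLC, galectin 10, had no read in untreated libraries or with ATRA and 18.5 to 28.03 normalized reads with DAC + ATRA, at least 8.44-fold higher.

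Of 7 other RNase A family genes and inhibitors, 3 were tested. RNASE1 passed the filter only through libraries with DAC, so that its call as raised is no result. Of the other 2, RNASE6 rose with DAC and with DAC + ATRA, beside 30.6% and 32.6% of all transcripts, and none passed with ATRA. RNASE6 had 79.2 to 108 normalized reads in untreated cells and 263 to 315 with DAC + ATRA (log2 fold change 1.57 ± 0.16, SE, limma adjusted p = 2.75e-08). RNASE1 had at most 0.92 in untreated cells and 16.1 to 19.9 with DAC + ATRA, at least 6.39-fold higher.

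Of 15 genes for packaging, processing and protease inhibition, 8 were tested. With DAC, 3 rose (30.6% of all transcripts) and 1 fell (8.7%), with ATRA 1 fell (2.67%), and with DAC + ATRA 2 rose (32.6%) and 1 fell (14.2%), so that the shares of rises lay near those of all transcripts. The medians were -0.14, 0.11 and -0.07, beside 0.22, 0.00 and 0.20. SERPINB8, 1 of the 8 and part of these medians, had no library at 10 with DAC or with DAC + ATRA. It could hardly be called raised with either. SRGN, the proteoglycan serglycin that holds granule proteins, rose by 1.96 ± 0.14 (SE, limma adjusted p = 1.74e-10) with DAC + ATRA, and CST3, the protease inhibitor cystatin C, by 1.39 ± 0.12 (adjusted p = 6.32e-09). CST7, cystatin F, fell with DAC + ATRA (-1.32 ± 0.14, adjusted p = 7.21e-08) and rose with DAC alone (0.58 ± 0.14, adjusted p = 0.00155).

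Of 14 transcription factors that act on granule genes, 10 were tested. CEBPD passed the filter only through libraries with DAC, so that its call as raised is no result. Of the other 9, with DAC 4 rose (30.6% of all transcripts) and 1 fell (8.7%), with ATRA 3 rose (6.47%) and 1 fell (2.67%), and with DAC + ATRA 4 rose (32.6%) and 2 fell (14.2%). Their medians were 0.84, 0.41 and 0.37, beside 0.22, 0.00 and 0.20. CEBPD had no read in untreated libraries and 416 to 474 normalized reads with DAC + ATRA, at least 159.7-fold higher. EGR1 went from 82.2 to 324 in untreated cells to 1261 to 1445 with DAC + ATRA (log2 fold change 3.15 ± 0.50, SE, limma adjusted p = 0.000300). GFI1, a repressor needed for neutrophil maturation, fell with each treatment, and its log2 fold change with DAC + ATRA was -2.03 ± 0.17 (adjusted p = 2.90e-09). MYB, the other of the 2 counted as fallen, had no library at 10 with ATRA or with DAC + ATRA, so that its call is no result. It had 11.03 to 25.5 normalized reads in untreated cells and 4.52 to 6.32 with DAC + ATRA. CEBPE, the factor of the specific granule genes, was looked at after its values were seen, and it rose by 2.54 ± 0.13 with DAC, 2.22 ± 0.13 with ATRA and 2.72 ± 0.13 in the combination.

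The libraries were checked against markers of U937 and of other cell types. The 11 markers of the line, which include LYZ, summed to 5096 to 5505 normalized reads in untreated cells, 6663 to 7986 with DAC, 6191 to 7084 with ATRA and 9407 to 9647 in the combination, and 8 of them reached 10 in at least 3 libraries. CD33 had 735 to 894 in all libraries. ITGAM, the integrin CD11b, had 194 to 218 in untreated cells, 858 to 893 with DAC, 949.6 to 1086 with ATRA and 2659 to 2870 in the combination. CD14 and CD68 had at most 2.71 and CSF2RA was listed at 0. These low values cannot be read as absent transcripts, since how reads in shared sequence were counted is not given.

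The 6 mature neutrophil markers summed to 883 to 956 in untreated cells, 563 to 696 with DAC, 1339 to 1564 with ATRA and 924 to 1002 in the combination, mostly from CXCR2 and CSF3R. CXCR2 had 263 to 327, 319 to 387, 512 to 676 and 483 to 516 in the same order of groups. CSF3R had 555 to 693, 176 to 377, 715 to 1052 and 408 to 473, so that the sum describes neither gene where DAC was given. FCGR3B and ALPL were at 0. The 5 T cell markers summed to 2.76 to 10.2, 301 to 395, 4.55 to 9.50 and 137 to 181 in the same order of groups, and these sums were mostly CD2, with 292 to 385 with DAC, while CD3E had at most 0.97. The 5 B cell markers summed to 485 to 558, 880 to 942, 505 to 722 and 1662 to 1791. Of these, CD79A went from 124 to 141 in untreated cells to 1299 to 1385 in the combination, and PAX5 had 342 to 421 and 340 to 387. The 7 markers of eosinophils, basophils and mast cells, which share EPX, CLC and CPA3 with the list above, summed to 11.8 to 24.9, 119 to 150, 56.6 to 75.0 and 97.6 to 105. The 4 megakaryocytic markers summed to 21.1 to 39.7, 164 to 186, 34.8 to 49.2 and 137 to 139, mostly from ITGA2B. The 8 erythroid markers summed to 11.03 to 15.7, 20.46 to 27.02, 11.7 to 20.1 and 20.8 to 30.5, with 6 of them at 0. The part of these changes in the values of LYZ, CAMP, MPO, RNASE2 and RNASE3 was not tested.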

How the data were processed

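RNA-seq of 12 U937 libraries was used. According to the methods and the submitters' processing notes, the authors checked reads with FastQC, aligned them to hg38 with STAR, counted them per transcript with HTSeq and scaled them with DESeq2. Versions, annotation release and counting mode are not given in the sources used here. The deposited signal values are the authors' normalized read counts, and all of them were whole multiples of the value of 1 read, from which the reads were recovered. Total reads per library ran from 8042435 to 10683593 (size factors 0.809 to 1.20), and mitochondrial transcripts took 36.3% to 42.5%. Counting limits the precision of low transcripts. The columns give the treatment and a running number, so libraries carry that number and are not paired.

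Of 197782 transcripts, 174768 were matched to GENCODE 44. Transcripts were tested with limma 3.58.1 (trend, robust) in R 4.3.3, with all 12 libraries in 1 fit. Alternatives used edgeR 4.0.16 and DESeq2 1.42.0 on recovered reads, other scalings and filters, a pseudocount of 0.1, gene sums, only the groups compared, a threshold of 0.05 and leaving out each library. The fits were tested on simulated data. Sequences were aligned with Biopython 1.88. Folds against groups with at most 3 reads per library are lower bounds. The genes named are the 10 members, at most the 2 highest and 2 lowest called genes of each list with DAC + ATRA, and the 3 transcripts most like LYZ and MPO. CEBPE, CPA3, TEP1, SERPINB8, PNP, genes beside ELANE, the LYZ antisense RNA and cell type markers are named beyond this rule. Members and lists were chosen with earlier results of these data known.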

Additional observations from a re-analysis of the deposited data

How the results depend on the processing

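Of the 21 member effects past the threshold, each kept its direction under every alternative tried, and 453 of their 459 alternative values stayed past the threshold. The 6 that did not were those of MPO with ATRA given above and MPO between DAC + ATRA and DAC without a filter on low values (limma adjusted p = 0.0360, at an unchanged -0.81). The number of members called stayed within 1.5 times of the reported number under all 137 alternatives. Values that changed sign belonged to effects that were not called. CAMP with ATRA was -0.0071 under protein-coding size factors and -0.057 under library size, and ran from -0.27 to 0.34 when each library was left out in turn (below 0 without untreated library 3 or ATRA library 7 or 8). LYZ with ATRA ran from -0.032 (without ATRA library 8) to 0.26. The interaction ran from 0.19 to 0.49 for LYZ (lowest without DAC library 4), from 0.019 to 0.63 for CAMP (lowest without ATRA library 9), from -0.32 to 0.023 for MPO (above 0 without DAC library 4), from -0.064 to 0.26 for RNASE2 and from -0.12 to 0.19 for RNASE3 (both below 0 without DAC library 5 or ATRA library 9). CAMP was not tested when 10 normalized reads were required in every library. No paired analysis was possible because the columns carry a running number and no replicate number of the labels, so the planned replicate block was not run. Depth limits CAMP in the groups without DAC, and of the other 5 members 4 rows (of AZU1, ELANE and LTF) were fitted, without a filter on low values only, where 0 of their 24 values were called.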

Other observations

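Genes that lie around the members were counted from lists. Of the 11 genes listed around LYZ, 5 were tested, and with DAC + ATRA 2 rose (32.6% of all transcripts) and 2 fell (14.2%), at a median log2 fold change of -0.10 beside 0.20 for all transcripts tested. CPSF6, a pre-mRNA cleavage factor 74.0 kb from LYZ, fell with a log2 fold change of -1.38 ± 0.25 (SE, limma adjusted p = 0.000269), and MDM2, the ubiquitin ligase of p53, rose by 0.90 ± 0.25 (adjusted p = 0.00500). Of the genes around RNASE2 and RNASE3, 4 were tested, of which RNASE1 passed the filter only through libraries with DAC. Of the other 3, 2 rose with DAC + ATRA (32.6% of all transcripts), RNASE6 of the RNase A list and TEP1 (0.83 ± 0.22, SE, limma adjusted p = 0.00257). PNP, the remaining gene, had no DAC + ATRA library at 10 and could hardly be called raised there. Around MPO, 6 were tested, of which EPX passed the filter only through treated libraries. Of the other 5, 1 rose with DAC + ATRA (32.6% of all transcripts), VEZF1 (0.43 ± 0.11, SE, limma adjusted p = 0.00159). The 1 that was lowered (14.2% of all transcripts) was BZRAP1, 20.3 kb from MPO, which fell from 190 to 254 normalized reads in untreated cells to 37.1 to 42.1 with DAC + ATRA (log2 fold change -2.47 ± 0.16, SE, limma adjusted p = 2.69e-11). Around LTF, CAMP and LCN2, 7 were tested, and 4 of these had no untreated library at 10, so that their number called is not given. RTP3, 12.7 kb from LTF, had no read in untreated libraries and 47.0 to 56.8 normalized reads with DAC + ATRA, at least 18.3-fold higher, while LTF itself had 7 reads in all. These lists were chosen with results of these data known.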
